A study of Mus musculus with 10 samples.

Results

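The IL-1 family of cytokines and receptors was examined in bone marrow–derived macrophages (BMDMs), using the 8 genes Il1a, Il1b, Il18, Il1rn, Il18bp, Il1r1, Il1rap and Il1r2. They were chosen by gene symbol and all 8 were found among the 55573 genes of the expression table. Of these, 7 passed the filter for testing (a CPM, the read count scaled to 1 common total, of 1 or more in 2 or more libraries), and Il1r1 did so only through the R848 libraries, where it was highest, so it is left out of the counts of called genes, which cover the other 6, and no limma p-value of it is given. Il1r2 did not pass and is described by its reads. The macrophages came from the marrow of wild-type (WT) female C57BL/6 mice and were kept in DMEM with 10% FBS and 50 ng/mL of the macrophage growth factor MCSF, which all groups shared. Each of 5 groups had 2 libraries and was treated for 4 hours. The vehicle group was the control. The polyU group received 5 µg of poly-uridine single-stranded RNA complexed with the carrier lipid DOTAP. The PNPi+dG/rG group received 1 µM ulodesine, an inhibitor of purine nucleoside phosphorylase (PNP), with 5 µM deoxyguanosine (dG) and 5 µM guanosine (rG), the nucleosides that this enzyme breaks down. The PNPi+dG/rG+polyU group received all of these agents, and the R848 group received 1 ng/mL R848 (resiquimod), a synthetic TLR7 ligand. The design asks whether guanosine nucleosides preserved by PNP inhibition, ssRNA, or both together change macrophage transcripts, and how that response compares with that to R848. No group is labelled as given ulodesine alone, the nucleosides alone or DOTAP alone. The parts of the inhibitor and the nucleosides, and those of the RNA and its carrier, therefore cannot be told apart.

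IL-1α and IL-1β, encoded by Il1a and Il1b, are inflammatory cytokines that bind the same receptor, IL-1R1, which then recruits the accessory chain IL-1RAP and signals through MyD88 to NF-κB. IL-1β and IL-18 are made as inactive precursors that inflammasome caspases cleave, so their mRNA levels do not measure released cytokine. The family carries its own brakes: the receptor antagonist encoded by Il1rn occupies IL-1R1 without signaling, IL-1R2 is a decoy that binds IL-1 without signaling, and the IL-18 binding protein captures IL-18. Macrophages are a main source of IL-1β and of the receptor antagonist, and TLR ligands are classical inducers of both.

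Of the genes, 3 lie on mouse chromosome 2 (GRCm38), all protein coding. Il1a occupies chr2:129299610-129309972 and Il1b chr2:129364570-129371139, both on the minus strand, while Il1rn lies at chr2:24336853-24351494 on the plus strand. Il1r1 (chr1:40225080-40317257) and Il1r2 (chr1:40074079-40125231) are both on the plus strand of chromosome 1. Il18 was at chr9:50554827-50581840 (plus strand), Il18bp at chr7:102014885-102018690 (minus strand) and Il1rap at chr16:26581704-26730117 (plus strand). The 250 bases before a transcript start are shown for the 3 genes with the largest changes in level, from the RefSeq promoter table of GRCm38.p6, each read 5′ to 3′ on the gene's own strand. The Il1a window is chr2:129309973-129310222 (minus strand), the Il1b window chr2:129371140-129371389 (minus strand), and the Il1rn window, the last of 3 starts in the table, chr2:24345121-24345370 (plus strand). Capitals mark GAGGAA, the core letters of a PU.1 site.
Il1a: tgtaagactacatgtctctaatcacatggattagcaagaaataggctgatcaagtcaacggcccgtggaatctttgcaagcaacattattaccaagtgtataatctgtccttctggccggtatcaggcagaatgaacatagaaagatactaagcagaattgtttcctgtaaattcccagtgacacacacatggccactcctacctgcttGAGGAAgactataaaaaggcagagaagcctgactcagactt
Il1b: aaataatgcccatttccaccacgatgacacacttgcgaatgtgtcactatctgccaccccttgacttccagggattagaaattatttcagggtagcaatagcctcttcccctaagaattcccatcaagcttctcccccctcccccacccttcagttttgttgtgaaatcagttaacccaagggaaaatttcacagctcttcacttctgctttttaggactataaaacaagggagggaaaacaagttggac
Il1rn: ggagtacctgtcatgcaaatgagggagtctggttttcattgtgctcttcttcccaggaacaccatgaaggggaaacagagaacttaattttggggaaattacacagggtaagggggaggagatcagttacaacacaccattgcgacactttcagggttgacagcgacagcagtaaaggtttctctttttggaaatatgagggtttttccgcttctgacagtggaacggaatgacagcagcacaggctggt
These windows were searched on both strands for the NF-κB consensus, the interferon response element, TTGCNNAA (C/EBP) and GAGGAA (PU.1). Il1a held 1 match, GAGGAA from 41 to 36 bases before the start, and the other two windows held none. Across the 32851 windows of this length in the table, 7.25% held the NF-κB consensus, 2.98% the interferon response element, 9.56% TTGCNNAA and 23.3% GAGGAA. Outside these 3 genes, TTGCNNAA was found as TTGCGGAA in the Il18bp window, 49 to 42 bases before the start, and as TTGCTGAA in the first Il1r1 window. The second Il1r1 window held GGAATGCCCC as read on the gene's own strand, whose reverse complement matches the NF-κB consensus. No window held more than 1 match, and a match is a run of letters, not a measured binding site.

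The libraries held between 14128124 and 38392592 reads on genes, worked out from the smallest steps in the deposited values, so a floor of 3 reads corresponded to between 0.0781 and 0.212 CPM. Replicate libraries correlated at Pearson r of 0.997 to 0.998 across genes (log2 of CPM + 1, which are not independent points). Of 15 macrophage markers, 14 reached 1 CPM in both libraries of every group, with a summed level of 19786 to 23631 CPM. The 10 fibroblast markers summed to at most 1.55 CPM under vehicle, polyU or PNPi+dG/rG, to 5.52 to 6.19 CPM under PNPi+dG/rG+polyU and to 157 to 165 CPM under R848, where 8 of the 10 reached 1 CPM. The 12 neutrophil markers summed to 39.1 to 68.3 CPM in the first 3 groups, 153 to 184 CPM under PNPi+dG/rG+polyU and 230.0 to 245 CPM under R848, most of it from Csf3r (166 and 179.7 CPM under R848) and Mmp8. Other genes of this neutrophil list moved in both directions between vehicle and R848. S100a8 was higher under R848 by 3.64 on the log2 scale, and Camp went from 0 and 0.0562 CPM to 1.91 and 1.81. S100a9 went from 1.18 and 1.46 CPM under vehicle to 0.0531 and 0 under R848. Ngp went from 1.12 and 1.01 to 0 and Ltf from 0.617 and 1.07 to 0. Ly6g and Retnlg had no read in any library. Dendritic cell markers (8 genes) summed to at most 3.77 CPM, lymphocyte markers (10 genes) to at most 1.01 CPM, and mast cell and basophil markers (8 genes) to 4.35 to 14.7 CPM. The part of these markers' cells in the R848 and PNPi+dG/rG+polyU values below was not tested, and in bulk RNA a change in cell numbers cannot be told apart from a change in RNA per cell.

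The agonist cytokines Il1a and Il1b were low in resting macrophages and rose by more than 2 orders of magnitude under PNPi+dG/rG+polyU and by more than 3 under R848. Il1b was at 2.13 and 1.97 CPM under vehicle, at 3.81 and 3.31 CPM under polyU and at 2.11 and 2.30 CPM under PNPi+dG/rG. It stood at 661 and 736 CPM under PNPi+dG/rG+polyU and at 6558 and 6751 CPM under R848. Neither of these last groups overlapped any other. Against vehicle, Il1b was 341-fold higher under PNPi+dG/rG+polyU (log2 difference 8.41 ± 0.0839 SE, limma adjusted p = 1.25e-18) and 3249-fold higher under R848 (11.67 ± 0.0839, limma adjusted p = 1.20e-20). Under polyU alone it was 1.73-fold higher, with both libraries above both vehicle libraries (limma adjusted p = 2.17e-06), which did not reach the 2-fold required for a call.

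Il1a followed the same order at a lower level. It was at 1.01 CPM in both vehicle libraries, 1.70 and 0.755 CPM under polyU, and 0.990 and 0.989 CPM under PNPi+dG/rG. Under PNPi+dG/rG+polyU it reached 156 and 173 CPM, and under R848 2020.1 and 1954 CPM. The polyU libraries lay on either side of the vehicle libraries. The rise over vehicle was 163-fold under PNPi+dG/rG+polyU (log2 difference 7.35 ± 0.338 SE, limma adjusted p = 1.50e-06) and 1965-fold under R848 (10.94 ± 0.338, limma adjusted p = 9.36e-08). Each of the 2 vehicle libraries held 18 reads of Il1a, which limits how exactly these folds are known. Il1a shares 222 exon bases with a gene on the opposite strand, Gm14023, which did not exceed 0.674 CPM, and Il1b shares 25 with the antisense gene Il1bos, which did not exceed 1.62 CPM.

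Il18 moved far less and in a different order. Vehicle libraries held 2.53 and 2.47 CPM of Il18, polyU libraries 3.64 and 3.72 CPM and PNPi+dG/rG libraries 3.26 and 3.48 CPM. PNPi+dG/rG+polyU gave the highest level, 14.4 and 15.0 CPM, and R848 gave 9.72 and 8.97 CPM. These groups did not overlap each other or any other group. Il18 rose 5.89-fold over vehicle under PNPi+dG/rG+polyU (log2 difference 2.56 ± 0.149 SE, limma adjusted p = 3.45e-10) and 3.74-fold under R848 (1.90 ± 0.149, limma adjusted p = 7.66e-09). Between these 2 groups it was 1.58-fold higher under PNPi+dG/rG+polyU (limma adjusted p = 0.00107), a difference under 2-fold that had an adjusted p of 0.122 when each library was centred on its median gene.

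**Figure D1:**
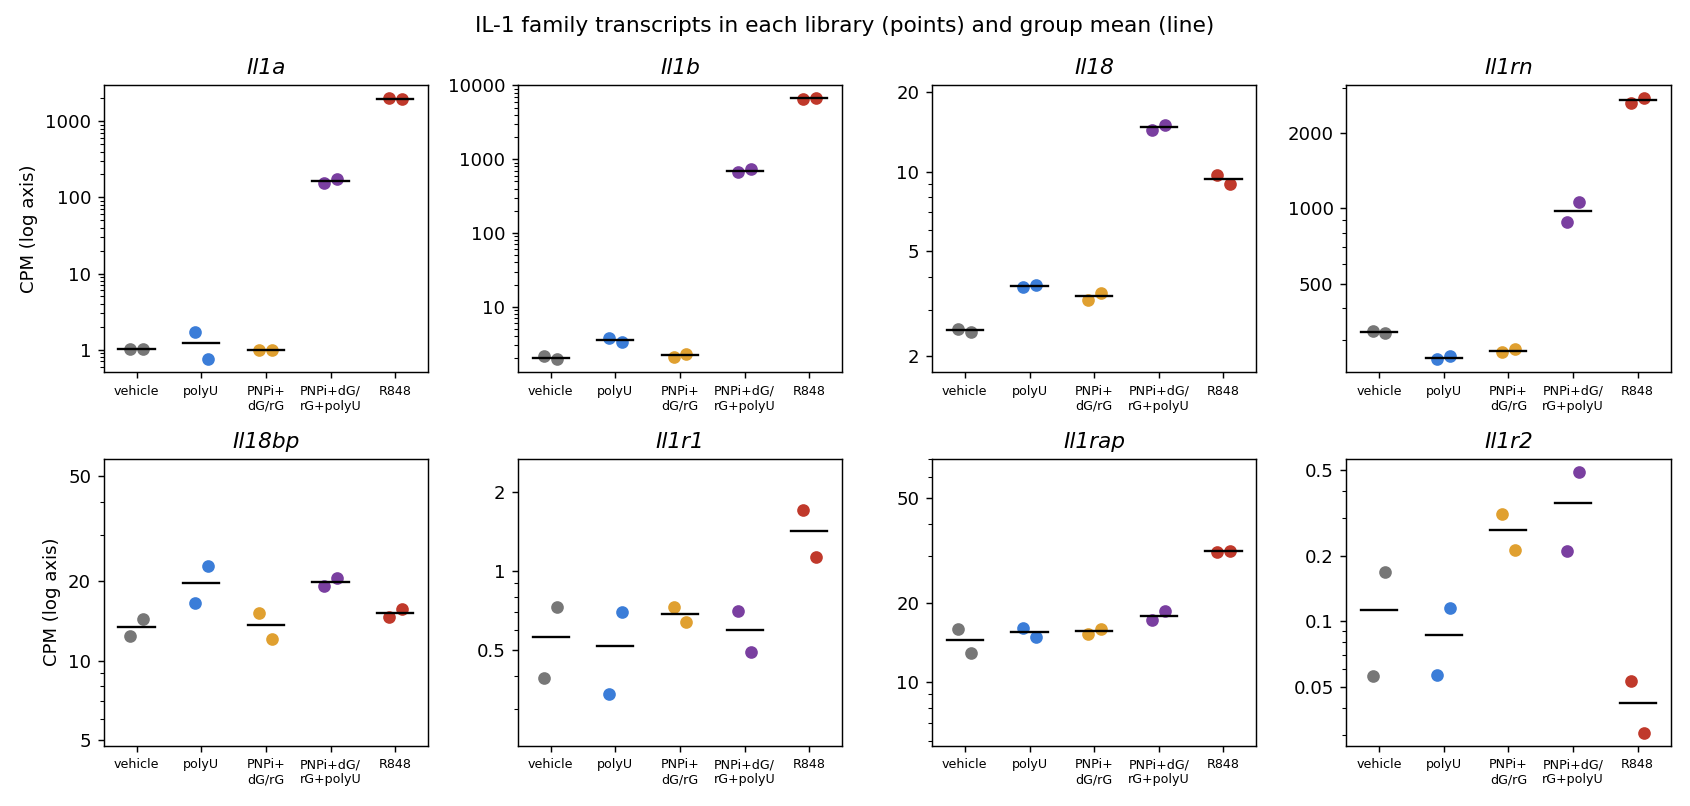
CPM of each of the 8 genes (log axis, a separate scale per panel) in the 2 libraries of each treatment group (points), with the group mean as a line. Il1a, Il1b and Il1rn were highest under R848, Il18 was highest under PNPi+dG/rG+polyU (14.4 and 15.0 CPM), and Il1r2 stayed under 0.5 CPM throughout.

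Among the inhibitors, Il1rn was abundant at rest and rose further, whereas Il18bp changed little. Il1rn was at 325 and 318 CPM under vehicle, 251 and 257 CPM under polyU, and 267 and 275 CPM under PNPi+dG/rG. It rose to 882 and 1059.5 CPM under PNPi+dG/rG+polyU and to 2621 and 2746 CPM under R848. That was 3.01-fold above vehicle for PNPi+dG/rG+polyU (log2 difference 1.59 ± 0.0664 SE, limma adjusted p = 4.13e-10) and 8.35-fold for R848 (3.06 ± 0.0664, limma adjusted p = 3.22e-13). Under polyU alone, both libraries of this antagonist lay below both vehicle libraries, a 1.26-fold difference (log2 difference -0.34, limma adjusted p = 0.00156) that was not called. The corresponding log2 difference under PNPi+dG/rG was -0.25 (limma adjusted p = 0.174).

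Il18bp was at 12.4 and 14.4 CPM under vehicle, 16.6 and 22.9 CPM under polyU, 15.2 and 12.1 CPM under PNPi+dG/rG, 19.2 and 20.5 CPM under PNPi+dG/rG+polyU, and 14.6 and 15.7 CPM under R848. The spread of the polyU pair alone took in both PNPi+dG/rG+polyU libraries. No comparison of Il18bp reached 2-fold. It had a limma adjusted p of 0.0102 under polyU (1.46-fold) and of 0.00393 under PNPi+dG/rG+polyU (1.48-fold) against vehicle, and of 0.280 under R848. The R848 difference depended on the scaling. On the log2 scale it was 0.18 as deposited and 0.77 with each library centred on its median gene. Il18bp shares 80 exon bases, 2.64% of its exons, with Numa1 on the opposite strand, a gene at up to 282 CPM. The rule by which reads on such bases were assigned is not given in the sources used here.

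The receptor chains were low, and the calls of Il1rap were in comparisons with R848. Il1rap, the accessory chain, was at 16.0 and 12.9 CPM under vehicle, 16.1 and 14.9 CPM under polyU, 15.3 and 16.0 CPM under PNPi+dG/rG, 17.2 and 18.6 CPM under PNPi+dG/rG+polyU, and 31.3 and 31.4 CPM under R848. The R848 libraries stood apart from the other 8, at 2.18-fold the vehicle level (log2 difference 1.13 ± 0.106 SE, limma adjusted p = 7.11e-08). Without vehicle library 2, which had the lower value, this fell to 0.97 on the log2 scale, just under 2-fold. Under PNPi+dG/rG+polyU the difference was 1.25-fold (limma adjusted p = 0.0150).

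Il1r1, the signaling receptor, was detected with 6 to 37 reads per library. It was at 0.393 and 0.730 CPM under vehicle, 0.341 and 0.697 CPM under polyU, 0.729 and 0.642 CPM under PNPi+dG/rG, 0.708 and 0.492 CPM under PNPi+dG/rG+polyU, and 1.70 and 1.13 CPM under R848. Both R848 libraries were above the other 8, and the other 4 groups overlapped. The log2 difference between R848 and vehicle was 1.37 ± 0.506 (SE). It was 0.93 without vehicle library 1 and 0.63 with 1 CPM added to each value, and the R848 libraries were also those in which the fibroblast markers summed to 157 to 165 CPM, whose part in this value was not tested. Il1r2, the decoy receptor, had 1 and 3 reads under vehicle, 1 and 2 under polyU, 12 and 8 under PNPi+dG/rG, 3 and 7 under PNPi+dG/rG+polyU, and 1 in each R848 library. At this depth a difference in Il1r2 between groups was not tested.

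**Figure D2:**
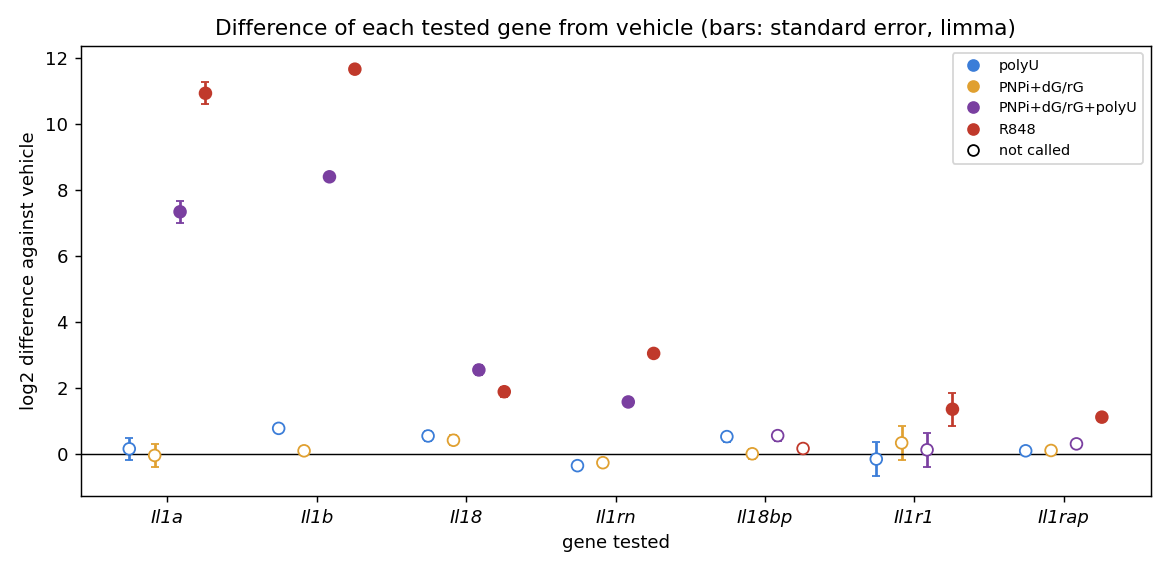
Log2 difference from vehicle for the 7 genes tested, in each of the other 4 groups (filled points, called at limma adjusted p under 0.05 and at least 2-fold; open points, not called; bars, SE). Il1a, Il1b, Il18 and Il1rn were called under PNPi+dG/rG+polyU and under R848, and Il1rap under R848 alone. Il1r1 is drawn as called under R848, but it entered testing only through that group.

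Under PNPi+dG/rG+polyU, 4 of the 6 genes counted were called higher than vehicle (Il1a, Il1b, Il18 and Il1rn), where 8.12% of all 11978 tested genes were called higher. Under R848 the count was 5 of 6, all but Il18bp, against 8.89% of all genes. Under polyU alone, none of the 6 was called by limma, against 3.99% of all genes called in either direction, although 4 (Il1b, Il18, Il1rn and Il18bp) had an adjusted p under 0.05 and the same 4 an unadjusted p under 0.05. Under PNPi+dG/rG alone, none was called, against 0.0751% of all genes, and 2 (Il18 and Il1rn) had an unadjusted p under 0.05. PNPi+dG/rG and polyU did not differ from each other by a called amount in any of the 6 (3.42% of all genes called, 2 members under an unadjusted p of 0.05). The deposited values share 1 scale by total reads. On that scale the median tested gene differed from vehicle by -0.22 on the log2 scale under PNPi+dG/rG+polyU and by -0.50 under R848. Relative to the median gene, the R848 differences were 11.53 for Il1a, 12.26 for Il1b, 2.50 for Il18, 3.66 for Il1rn, 1.97 for Il1r1, 1.72 for Il1rap and 0.77 for Il18bp, and the 4 called under PNPi+dG/rG+polyU were between 1.80 and 8.62. Centred in this way, the same 4 and 5 genes were called. Over all genes, centring changed the split of calls from 973 higher and 1712 lower to 1192 and 1245 under PNPi+dG/rG+polyU, and from 1065 and 3633 to 1792 and 2107 under R848.

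PNPi+dG/rG and polyU were each compared with their combination. Against polyU alone, PNPi+dG/rG+polyU raised Il1a by 145-fold, Il1b by 196-fold, Il18 by 4.00-fold and Il1rn by 3.80-fold, which made 4 of 6 genes called higher (limma adjusted p of 2.49e-06 or less, 5.29% of all genes). The same 4 genes were called higher than under PNPi+dG/rG alone (7.63% of all genes). To ask whether the effect of PNPi+dG/rG differed with and without polyU, an interaction was fitted. It was positive and called in 4 of 6 genes (4.55% of all genes). On the log2 scale its size was 7.21 for Il1a (limma adjusted p = 2.98e-05), 7.51 for Il1b (1.55e-15), 1.57 for Il18 (1.90e-05) and 2.17 for Il1rn (2.39e-09). For Il18bp it was 0.00 ± 0.210 (SE) and for Il1rap 0.09 ± 0.150. These comparisons share the same libraries and are not independent of one another.

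Levels under PNPi+dG/rG+polyU were then set against those under R848. Of the 6 genes, 3 were called lower (3.86% of all genes): Il1a by 12.1-fold (log2 difference -3.59, limma adjusted p = 7.95e-05), Il1b by 9.54-fold (-3.25, 4.98e-14) and Il1rn by 2.77-fold (-1.47, 1.31e-09). Il1r1 had a log2 difference of -1.23, which was -0.97 without PNPi+dG/rG+polyU library 2 and -0.59 with 1 CPM added to each value. Il1rap was 1.75-fold lower (limma adjusted p = 5.70e-06), under 2-fold as deposited and called at -1.19 when libraries were centred on the median gene. Il18bp differed by 1.31-fold in the other direction (adjusted p = 0.0312), which went to a log2 difference of 0.01 after centring. R848 also gave calls against polyU in 5 of 6 genes (7.55% of all genes called higher) and against PNPi+dG/rG in 5 of 6 (8.36%). The Il1rap call against polyU was lost without polyU library 2 (log2 difference 0.96) and with 1 CPM added to each value (0.97), and that against PNPi+dG/rG without PNPi+dG/rG library 1 (0.97) and with 1 CPM added (0.96).

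Ordered by mean level, Il1a and Il1b both placed R848 first and PNPi+dG/rG+polyU second, with each step passing an adjusted p of 0.05. For Il1a the order of the remaining 3 groups could not be resolved (adjusted p of 0.750 between polyU and vehicle and 0.997 between vehicle and PNPi+dG/rG). For Il1b polyU was above PNPi+dG/rG (adjusted p = 1.09e-05), which was not resolved from vehicle (adjusted p = 0.798). Il1rn had the same first pair of groups, followed by vehicle, PNPi+dG/rG and polyU, and neither of the last 2 neighbouring steps was resolved. Il18 was the exception in its first place, PNPi+dG/rG+polyU. Its polyU and PNPi+dG/rG levels were not resolved from each other (adjusted p = 0.548), nor the latter from vehicle (0.310).

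Ratios inside a library do not depend on how the library was scaled. For each library the CPM of an agonist was divided by that of its inhibitor, so the ratio compares reads and not levels per length. The ratio of Il1b to Il1rn was 0.00656 and 0.00619 under vehicle, 0.0151 and 0.0129 under polyU, and 0.00790 and 0.00835 under PNPi+dG/rG. It was 0.749 and 0.695 under PNPi+dG/rG+polyU and 2.50 and 2.46 under R848. Thus antagonist reads outnumbered Il1b reads in every library except the R848 pair. Over all divisions of 10 libraries into 5 pairs, no other division gave a tighter grouping (1-sided exact permutation p = 0.00106, the smallest this design allows, and 0.00423 after adjustment over the 4 ratios tested). The ratio of Il18 to Il18bp had geometric means of 0.187 under vehicle, 0.189 under polyU, 0.248 under PNPi+dG/rG, 0.742 under PNPi+dG/rG+polyU and 0.617 under R848 (exact permutation p = 0.0138, adjusted 0.0212), and the last 2 groups lay above the other 3 without overlap.

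The 2 agonists were also set against each other. The ratio of Il1a to Il1b had geometric means of 0.494 under vehicle, 0.320 under polyU, 0.449 under PNPi+dG/rG, 0.236 under PNPi+dG/rG+polyU and 0.299 under R848. The polyU libraries, at 0.448 and 0.228, spanned much of that range, and the grouping had an exact permutation p of 0.112, or of 0.00106 with 1 CPM added to each value. Both vehicle libraries, at 0.474 and 0.514, lay above the PNPi+dG/rG+polyU pair and the R848 pair. The ratio of Il1r1 to Il1r2 rests on few reads. Summed over both libraries there were 20 Il1r1 and 4 Il1r2 reads under vehicle, a ratio of 5.00 (95% exact binomial interval 1.67 to 20.1), and 69 and 2 under R848, a ratio of 34.5 (9.20 to 291). The same ratio was 6.00 (1.75 to 31.8) under polyU, 2.60 (1.53 to 4.60) under PNPi+dG/rG and 1.70 (0.735 to 4.15) under PNPi+dG/rG+polyU. These intervals cover counting error only. The grouping of this ratio had an exact permutation p of 0.0159 (adjusted 0.0212), and of 0.0815 with 1 CPM added to each value. Each R848 library held 1 Il1r2 read, so this test cannot decide whether the ratio differed between groups.

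**Figure D3:**
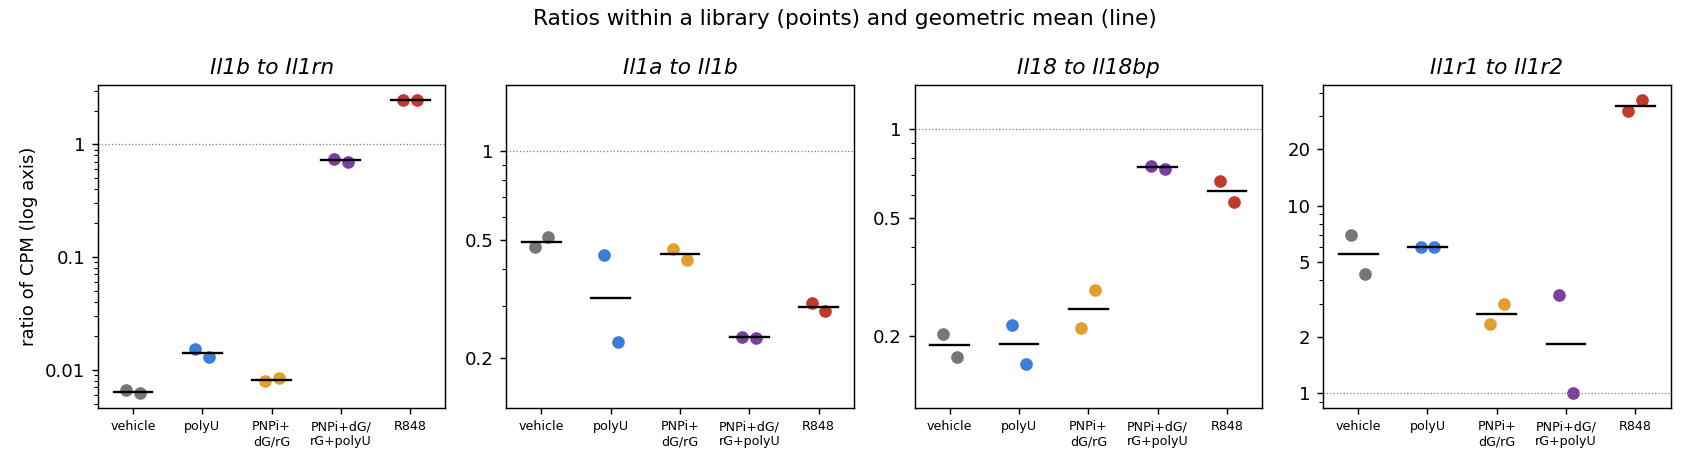
Ratio of CPM values inside each library (points, log axis with a separate scale per panel) and the group's geometric mean (line), with a dotted line at equal CPM, which is not equal level per length. The Il1b to Il1rn ratio passed 1 only under R848 (2.50 and 2.46), and the Il18 to Il18bp ratio stayed under 1 in every library.

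The share of the library given to these 8 genes changed with the treatment. They summed to 359.6 and 352 CPM under vehicle, 294 and 303 CPM under polyU, and 305 and 311 CPM under PNPi+dG/rG. The sum was 1752 and 2024 CPM under PNPi+dG/rG+polyU and 11256 and 11508 CPM under R848, or 1.13% and 1.15% of all reads on genes. Il1rn made up 90.4% of the sum in both vehicle libraries, 50.4% and 52.3% under PNPi+dG/rG+polyU, and 23.3% and 23.9% under R848. Il1b went from 0.593% and 0.559% of the sum under vehicle to 58.3% and 58.7% under R848. By mean CPM, not divided by gene length, Il1b ranked 10513 among all genes under vehicle, 185 under PNPi+dG/rG+polyU and 7 under R848. Il1rn ranked 488, 113 and 29 by the same measure. Levels of different genes compare only per length. The lengths used were those of all annotated exons of a gene merged. They were 5.54 kb for Il1rn, 1.91 kb for Il1b, 1.97 kb for Il1a, 3.03 kb for Il18bp and 1.03 kb for Il18. Which transcripts were expressed was not tested, and the order of genes per kb below depends on these lengths. Per kilobase of exon, Il1rn stood at 58.1 ± 0.916 CPM per kb (SD, n = 2) under vehicle and Il1b at 1.07 ± 0.0615. Under PNPi+dG/rG+polyU this turned to 175 ± 22.6 for Il1rn and 366 ± 27.8 for Il1b, and under R848 to 485 ± 16.0 and 3489 ± 71.7. Il1a, at 83.4 ± 6.03 and 1007 ± 23.8 CPM per kb in those 2 groups, was below Il1rn under PNPi+dG/rG+polyU and above it under R848. Il18 was below Il18bp per kb under vehicle (2.42 ± 0.0363 and 4.43 ± 0.476) and above it under PNPi+dG/rG+polyU (14.3 ± 0.374 and 6.55 ± 0.301) and R848 (9.06 ± 0.512 and 5.00 ± 0.278).

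**Figure D4:**
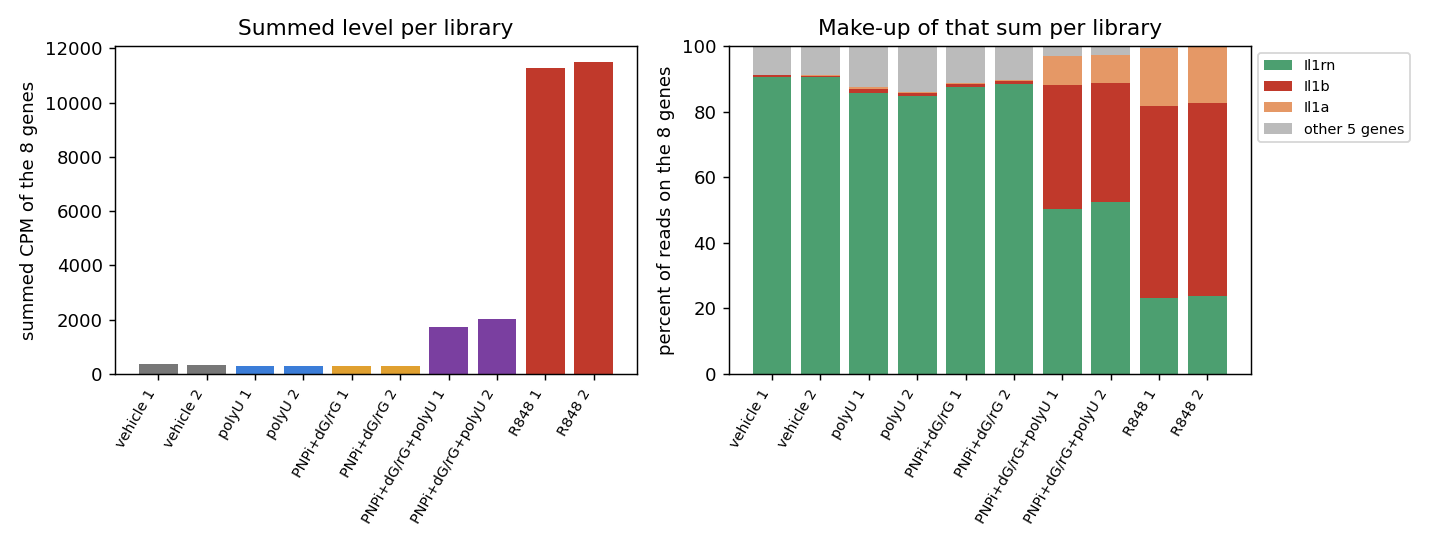
Left, summed CPM of the 8 genes in each library; right, the percentage of that sum taken by Il1rn, Il1b, Il1a and the other 5 genes. The sum rose from 352 and 359.6 CPM under vehicle to 11256 and 11508 CPM under R848, and the share of Il1rn went from 90.4% to 23.3% and 23.9%.

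Other cytokines of the family were mostly below the filter. Of 6 listed, Il1f6 and Il1f9, the genes for IL-36α and IL-36γ, passed the filter. Il1f6 did so only through R848 and Il1f9 only through PNPi+dG/rG+polyU and R848, where they were highest, so no p-value of them is given. Il1f9 had 2 and 5 reads under vehicle and was at 5.59 and 6.82 CPM under PNPi+dG/rG+polyU (log2 difference 5.12 ± 0.578 SE). Under R848 it was at 22.9 and 21.5 CPM (6.96 ± 0.578). Il1f6 had no read under vehicle, polyU or PNPi+dG/rG. It was at 0.425 and 0.844 CPM under PNPi+dG/rG+polyU and at 1.91 and 3.37 CPM under R848, which was at least 3.77-fold and at least 15.7-fold higher than vehicle when vehicle is set at 3 reads per library. Of 7 further receptors, 3 were tested. Il18rap, the accessory chain for IL-18, fell from 2.81 and 2.75 CPM under vehicle to 0.708 and 1.06 CPM under PNPi+dG/rG+polyU (log2 difference -1.69, limma adjusted p = 9.12e-04) and to 0.425 and 0.582 CPM under R848 (-2.48, 1.60e-05). Il1rl1, the IL-33 receptor, passed the filter only through vehicle, where it was at 1.18 and 1.01 CPM. It was between 0.372 and 0.521 CPM in these groups and at 0.511 and 0.407 CPM under polyU, and no test of it is given. Under polyU alone Il18rap had 1.70 and 0.872 CPM (log2 difference -1.19, limma adjusted p = 0.0196) and was not called when either vehicle library or polyU library 2 was left out.

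Genes for the inflammasome and for processing of IL-1 and IL-18 split in direction. Of 17 tested, 4 rose and 4 fell under PNPi+dG/rG+polyU (8.12% and 14.3% of all genes), with a list median of 0.19 on the log2 scale beside -0.22 for all genes. The 4 that rose were Casp4, an inflammatory caspase, by 3.58, Mefv, which encodes the inflammasome sensor pyrin, by 3.52, Nlrp3, the sensor of the best-known inflammasome, by 2.85, and Casp1, the protease that cleaves IL-1β and IL-18, by 1.64. The 4 that fell were Nlrp1b (-2.39), P2rx7, the ATP-gated channel that can trigger NLRP3 (-1.24), Nlrp1a (-1.12) and Txnip (-1.07). Under R848, 3 rose (Mefv 4.50, Nlrp3 3.82, Casp4 3.49) and 3 fell (Nlrp1b -5.06, P2rx7 -2.49, Nlrp1a -2.34), beside 8.89% and 30.3% of all genes. After centring, the R848 counts were 6 and 3, beside 1792 higher and 2107 lower of all 11978 genes. Those for PNPi+dG/rG+polyU were then 4 and 2, beside 1192 and 1245. Casp1 was at 60.5 and 62.8 CPM under vehicle, 185 and 198 CPM under PNPi+dG/rG+polyU and 113 and 122 CPM under R848, so that, like Il18, it was highest under PNPi+dG/rG+polyU. Nlrp3, at 89.7 and 88.1 CPM under vehicle, was at 664 and 622 CPM under PNPi+dG/rG+polyU and 1231 and 1274 CPM under R848. Under polyU alone, Casp4 (1.72) and Mefv (1.70) were called higher.

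Of the genes that act below the receptor, 24 of 25 listed were tested. Of these, 10 rose and 1 fell under PNPi+dG/rG+polyU (8.12% and 14.3% of all genes), and under R848 13 rose and 2 fell (8.89% and 30.3%), with list medians of 0.61 and 1.06 on the log2 scale. The largest changes in both groups were in inhibitors or modulators of NF-κB and of the receptor complex. Nfkbiz, an NF-κB cofactor, rose by 6.81 under PNPi+dG/rG+polyU and by 6.33 under R848, Nfkbia, the inhibitor IκBα, by 4.12 and 3.92, and Irak3, an inhibitory kinase of the receptor complex, by 2.88 and 4.02. The genes that fell were Peli2, a ubiquitin ligase (-2.08 and -2.51), and, under R848, Tab1 (-1.70), a partner of the kinase TAK1. PolyU alone raised Nfkbiz (2.42) and Nfkbia (1.74). Between PNPi+dG/rG+polyU and R848 only Irak3 was called (-1.15, limma adjusted p = 3.80e-11), beside 3.86% of all genes called lower. After centring 2 of the 24 were called lower, beside 852 of all 11978 genes. Nfkbiz was at 13.1 CPM in both vehicle libraries, 67.9 and 72.1 CPM under polyU, 1514 and 1419 CPM under PNPi+dG/rG+polyU and 1051 and 1059.7 CPM under R848.

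**Figure D5:**
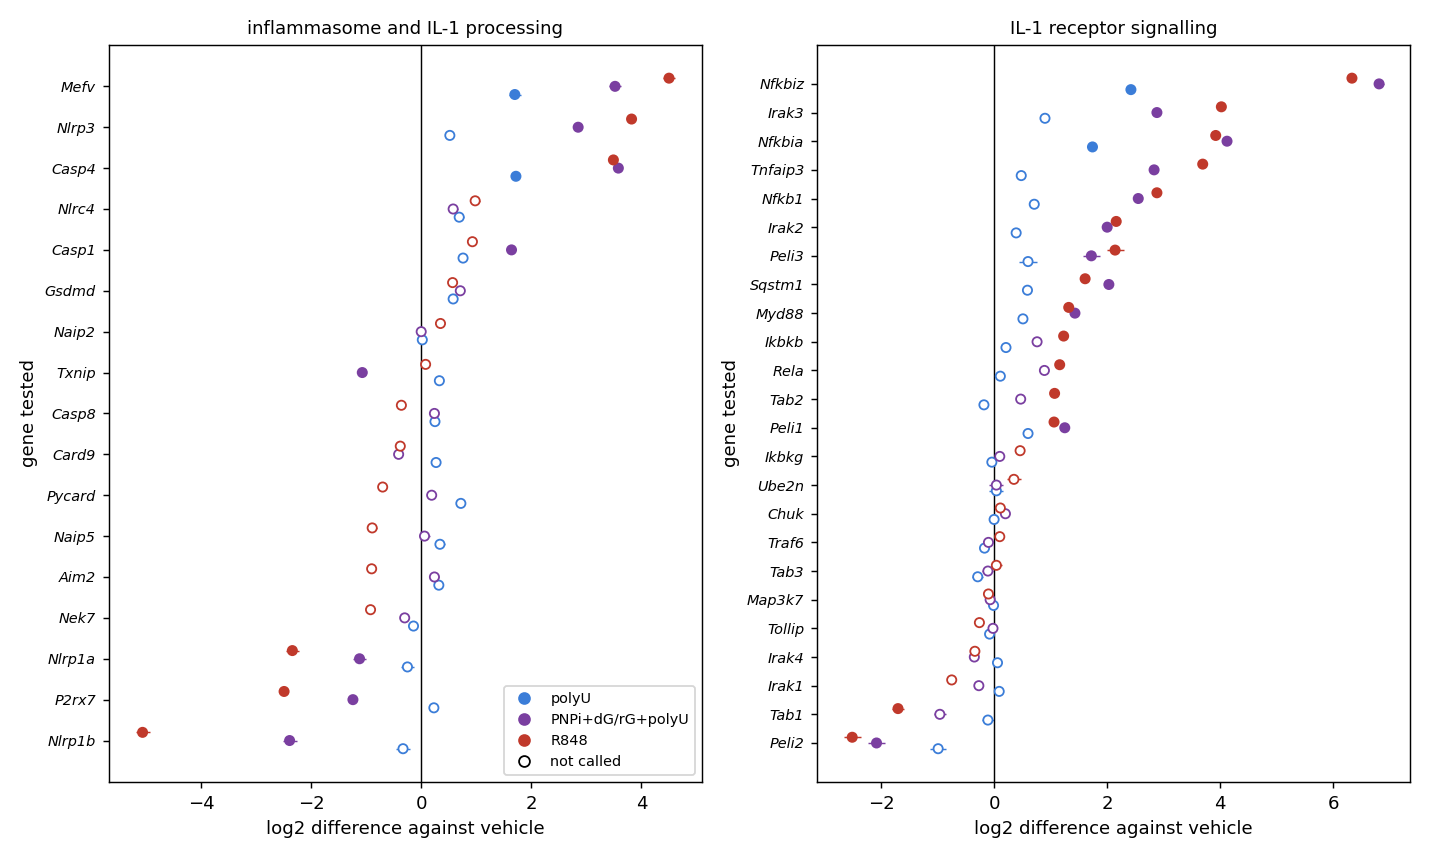
Log2 difference from vehicle of the 17 inflammasome and processing genes (left) and the 24 receptor signaling genes (right) tested, for polyU, PNPi+dG/rG+polyU and R848 (filled points called, open points not called, bars SE). Inflammasome genes lie on both sides of 0, from -5.06 for Nlrp1b to 4.50 for Mefv under R848, and Nfkbiz has the largest difference on the right, 6.81 under PNPi+dG/rG+polyU.

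Genes whose pattern over the 10 libraries was most like that of a member were found by the Pearson correlation of log2(CPM + 1) among the 9052 genes whose mean reached 10 CPM in some group. For Il1b they were Itgal (r = 0.9996), Itgb8, Procr, Rab11fip1 and Sntb1. For Il1a they were Klf7 (r = 0.9990), Itgal, Gpd2, Il1f9 and Cemip2, and for Il1rn Notch2 (r = 0.9973), Inpp5b, Fmnl2, Dgkh and Rnf19a. The 10 libraries form 5 groups, of which R848 and PNPi+dG/rG+polyU set most of the spread, so these values describe a shared order of groups. Itgal, an integrin chain of leukocytes, went from a mean of 240.1 CPM under vehicle to 764 CPM under PNPi+dG/rG+polyU and 1316 CPM under R848, a far smaller span than that of Il1b.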

How the data were processed

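RNA-Seq was performed on 10 mouse BMDM libraries (KAPA stranded mRNA kit). Per the study's methods and the submitters' processing notes, reads were demultiplexed with bcl2fastq 2.19.1.403, mapped to GRCm38 with STAR 2.27a and counted per gene against Ensembl 97. The authors deposited normalized CPM values with 0.0001 added. Read depth and reads per gene were worked out here from the steps between low values (100.0% lay within 0.1 of a whole read). Replicates are called biological, but nothing says that they came from separate cultures or mice, so p-values measure only the spread between these samples. Gene symbols were matched by Ensembl identifier. Positions and exon lengths were taken from GENCODE M21 (Ensembl 96), and promoters from RefSeq.

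Log2 of the deposited CPM was tested with limma 3.58.1 in R 4.3.3 (trend and robust options), with all 10 libraries in 1 model, on the 11978 genes that reached 1 CPM in 2 or more libraries. The Benjamini-Hochberg adjustment ran over all tested genes of a comparison. Calls required adjusted p under 0.05 and at least 2-fold. Fold changes are on the scale of log2(CPM + 0.0001). Ratios were tested with an exact permutation test. Scripts were tested on simulated data. All 8 members are described. From the wider lists, the 3 largest called differences against vehicle under PNPi+dG/rG+polyU and under R848, and every gene of a count of 5 or fewer, were named, as were the 5 genes most like Il1a, Il1b and Il1rn. Casp1 and Nlrp3 values per library were chosen after their differences were seen, as were those of Nfkbiz and Itgal. The members and lists were chosen with earlier results of these data known. Alternatives were other pseudocounts (0.1 and 1), filters, centring, plain variance moderation, only the compared groups, a replicate block and leaving out each library.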

Additional observations from a re-analysis of the deposited data

Results flagged for a closer look

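The effect of PNPi+dG/rG on 4 genes differed between macrophages that also received polyU and those that did not, by the interaction term in limma. The interaction was 7.21 on the log2 scale for Il1a, 7.51 for Il1b, 1.57 for Il18 and 2.17 for Il1rn. In each case PNPi+dG/rG without polyU gave a difference from vehicle that was not called, while both PNPi+dG/rG+polyU libraries lay above both polyU libraries.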

How the results depend on the processing

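Among the 6 genes counted, only Il1rap changed its call under an alternative, and only in comparisons with R848. The member differences counted next include those of Il1r1. Of 597 member differences recomputed under settings that kept all libraries, 584 kept their direction and side of the threshold, and of 748 recomputed with a library left out, 716 did. The called differences of Il1a, Il1b, Il18 and Il1rn kept their direction and call throughout. With a library left out, the log2 difference of Il1rap for R848 ranged from 0.97 to 1.28 against vehicle and from 0.96 to 1.08 against polyU. Against PNPi+dG/rG it ranged from 0.97 to 1.04. With 1 CPM as pseudocount the log2 difference of Il1r1 was 0.63 for R848 against vehicle and 0.67 against polyU. For PNPi+dG/rG+polyU against R848 it was -0.59. With 1 CPM as pseudocount, the exact p of the Il1a to Il1b ratio was 0.00106 and that of Il1r1 to Il1r2 0.0815; the cause was not tested. Centring turned the sign of 4 uncalled differences: Il18bp in PNPi+dG/rG against vehicle (-0.01) and in R848 against polyU (0.27), and Il1r1 in PNPi+dG/rG+polyU against PNPi+dG/rG (0.03) and in the interaction (0.21). Uncalled differences that changed sign with a library left out are given as ranges. Against vehicle under polyU, Il1a ranged from -0.42 to 0.75, Il1r1 from -0.65 to 0.38 and Il1rap from -0.05 to 0.26. Under PNPi+dG/rG, Il18bp ranged from -0.14 to 0.18, Il1r1 from -0.09 to 0.80 and Il1rap from -0.03 to 0.27, and under PNPi+dG/rG+polyU Il1r1 from -0.31 to 0.59. For PNPi+dG/rG+polyU against polyU, Il18bp ranged from -0.21 to 0.26 and Il1r1 from -0.24 to 0.79, and against PNPi+dG/rG Il1r1 from -0.47 to 0.05. Il18bp ranged from -0.01 to 0.32 for R848 against PNPi+dG/rG. For PNPi+dG/rG against polyU, Il1a ranged from -0.78 to 0.39, Il1r1 from -0.03 to 1.00 and Il1rap from -0.05 to 0.07. In the interaction, Il1r1 ranged from -0.59 to 0.44 and Il1rap from -0.07 to 0.24. Where a group was left with 1 library, that library was assumed to vary like the other groups. Replicate numbers in the labels did not pair the libraries: deviations of same-numbered libraries correlated at -0.286 to 0.109 over 10 pairs of groups (median -0.023, 1 over 0.1). Among the 6 genes counted, a replicate block left 4 called higher than vehicle under PNPi+dG/rG+polyU and 5 under R848. Without the block, 8.12% and 8.89% of all genes were called higher in these comparisons. A planned test on counts was not run, because the deposited values carry an added constant. Depth limits Il1r1 and Il1r2 most, and with 2 libraries a group the spread of each group is barely known.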
